A study of Mus musculus with 8 samples.

Results

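The clustered, replication-dependent histone genes were followed in the total RNA of gastric epithelial cells, in 8 libraries from C57BL/6 mice. Genes were taken by name from the rows of the deposited tables, as H1f1 to H1f6 and every H2ac, H2bc, H3c and H4c gene or gene with an older symbol of the Hist1h, Hist2h, Hist3h or Hist4h form. The names gave 71 genes, of which 4 are pseudogenes and were dropped. Of the 67 left, H2ac7 and H2ac18 were listed at 0 in all 8 libraries, and the other 65 of the 38920 rows in each table form the set described here. These are 6 linker histone genes (H1) and 59 core histone genes, 16 of class H2A, 18 of H2B, 12 of H3 and 13 of H4. All 65 entered the test, and 63 stood above 0 in all 8 libraries, while H1f6 and H2ac1 were listed at 0 in 1 library each. H2aw, H2bu2, H4f16 and H4bc24 joined by their older symbols; the gene called H4bc24 in the RefSeq table was formerly Hist1h2br and was counted with H2B.

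The libraries HFD22, HFD23, HFD26 and HFD27 came from mice fed a high fat diet and ND15.17.18, ND16, ND19 and ND20 from control mice, all from sorted stomach cells, and the series compares expression between the diets. The labels give no age or length of feeding, do not say that each library is a separate mouse and do not explain the 3 numbers of ND15.17.18, so the p-values measure the spread between these libraries, which may be technical. RNA was not selected by its poly(A) tail; ribosomal RNA was removed instead.

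Core histones form the protein spool around which DNA is wound, as pairs of H2A with H2B and of H3 with H4, and the linker histone H1 binds where the DNA enters and leaves it. In dividing cells the genes of the large histone clusters are switched on as DNA is copied, and their messengers end in a conserved stem-loop instead of a poly(A) tail. The stem-loop is bound by SLBP, which takes part in cutting, translation and decay of the messenger. In the gastric glands, dividing progenitors lie in the isthmus, while pit, parietal and chief cells are mostly out of cycle.

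The stem-loop is shown because it takes the place of a poly(A) tail in these messengers. It was found in the GENCODE M21 transcripts (GRCm38) of 44 of the 67 genes, 42 of them members, and in 42 of the 48 with at least 60 annotated bases after the stop codon. Capitals mark the 16 bases of the stem-loop, with 5 flanking bases on each side in lower case, as DNA letters read 5′ to 3′ on the gene's strand.
H1f3: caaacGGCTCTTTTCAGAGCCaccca
H1f4: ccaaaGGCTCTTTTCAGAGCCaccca
H2ac4: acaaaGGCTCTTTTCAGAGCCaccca
H2ac20: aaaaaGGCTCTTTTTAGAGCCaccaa
H2bc9: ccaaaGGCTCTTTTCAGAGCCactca
H2bc12: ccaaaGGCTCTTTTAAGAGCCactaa
H3c3: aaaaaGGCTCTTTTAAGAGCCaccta
H4c4: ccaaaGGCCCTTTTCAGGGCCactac
H4c11: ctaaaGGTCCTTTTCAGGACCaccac
H4c14: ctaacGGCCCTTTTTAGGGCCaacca
The genes of H1, H2A, H2B and H3 carried 3 forms of the stem-loop. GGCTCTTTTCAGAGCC was in 24 of them, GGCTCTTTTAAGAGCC in H1f6, H2bc12, H2bc3, H3c3, H3c6 and H3c7, and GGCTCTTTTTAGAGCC in H2ac20. H4 genes differed in the stem: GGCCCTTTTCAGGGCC was in 7, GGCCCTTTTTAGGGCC in H4c14 and H4c9, and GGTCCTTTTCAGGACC in H4c11 and H4c2. Annotated transcripts of 18 genes are over 1000 bases long, and that of H1f3 runs 4884 bases past the stem-loop.

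CCAAT and TATA boxes were frequent in the promoters of the set. Of the 60 members with an entry among the RefSeq promoters (GRCm38.p6, 250 bases before to 50 after the start), 51 held a CCAAT box (CCAAT, searched on both strands), or 85%, against 37.9% of 27025 genes. All 48 promoters of H1, H2A, H2B and H3 genes held it, against 3 of 12 for H4. A TATA box (TATAAA) was in 33 of 60, or 55%, against 14.2% of all genes. The octamer ATTTGCAT was in 7 of 16 H2A and 6 of 16 H2B promoters and in none of the other classes, against 1.75% of all genes. The H1 box (AAACACA) was in 5 of 6 linker promoters, against 7.14% of all genes. A match describes the sequence only and is not a site of binding.

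The promoter of H1f3, the member with the smallest p between the groups, holds these boxes within 250 bases (chr13:23554782-23555031, plus strand, GRCm38.p6). Capitals mark the H1 box, the CCAAT box and TATAAA on either strand.
H1f3: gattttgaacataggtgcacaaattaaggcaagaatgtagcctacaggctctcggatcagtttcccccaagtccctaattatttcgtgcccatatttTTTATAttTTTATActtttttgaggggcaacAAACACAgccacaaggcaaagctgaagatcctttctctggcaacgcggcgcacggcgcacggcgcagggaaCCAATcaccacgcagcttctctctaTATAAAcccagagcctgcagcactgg
On the gene's own strand, the H1 box begins at base -122 from the start, the CCAAT box at -51 and a TATA box at -26. H2bc15, the member with the largest difference between the groups over all 8 libraries, shares its upstream region with H2ac15, which is transcribed away from it, and the 163 bases between the starts are shown (chr13:21753913-21754075, plus strand, GRCm38.p6).
H2bc15: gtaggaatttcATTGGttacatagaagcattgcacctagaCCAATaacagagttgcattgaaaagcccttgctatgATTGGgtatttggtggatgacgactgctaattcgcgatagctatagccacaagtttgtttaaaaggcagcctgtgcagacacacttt
Capitals mark 3 CCAAT boxes, of which the one at -123 reads on the strand of H2bc15 and those at -152 and -87 on that of H2ac15. H2bc15 was chosen after its values were seen.

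On the linear scale each table sums to 36.9 M, so the deposited values are scaled to a common total, and the tables hold no read counts. In ND15.17.18 the 20 highest rows took 85.7% of that total and in ND19 59.1%, against 27.8% to 43.1% in the other 6 libraries. The lowest rank correlation over all rows was that of HFD23 with ND15.17.18, at 0.845. The highest correlation with any other library was 0.896 for HFD23 and 0.925 for ND15.17.18. Unless the deposited scale is named, values are log2(value + 1) with each library divided by a median-ratio factor, which sets it by its typical row. A difference is HFD minus ND on that scale, and understates the change of low genes. The median of all 27401 rows tested differed by 0.12 after this scaling and by 0.90 as deposited. All 17 gastric epithelium markers were tested, with a summed log2 level of 21.86 to 21.99 in HFD and 21.30 to 21.82 in ND. This sum largely follows 1 gene, Pgc, at 21.20 to 21.58 in HFD and 20.22 to 21.33 in ND. The median marker level overlapped, at 15.24 to 15.45 in HFD and 15.03 to 15.83 in ND. The median difference was -0.12, with 6 of 17 positive.

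All 65 histone genes stood higher on average in HFD than in ND, with a median difference of 0.83 and a range from 0.05 to 1.48. None passed limma's adjusted p of 0.05, against 0.0109% of all rows tested, and the smallest adjusted p was 0.119, for H1f3. At an unadjusted p under 0.05, 41 of the 65 were higher in HFD, against 6.43% of all rows, and 0 were lower, against 4.09% of all rows. In 32 of the 65 every HFD library lay above every ND library, against 4.72% of all rows. Of all rows tested, 59.9% had a positive difference. The members are not independent of each other, since many share sequence and all share the libraries. In bulk samples, fewer cells of a type and less RNA per cell cannot be told apart.

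ND15.17.18 was the lowest of the 8 libraries for 38 members, and its part in the counts was therefore measured. Without it, 0 members passed the adjusted threshold (limma), against 0.00733% of all rows, 37 were higher at an unadjusted p under 0.05, against 4.56%, and 0 were lower, against 4.22%. Every HFD library lay above the 3 remaining ND libraries in 27 members, against 5.56% of all rows. The median difference became 0.69, with 64 of 65 positive. Leaving out a library in this way also sets the scaling factors anew from the 7 that remain. With the factors of all 8 libraries kept, 40 were higher without it, against 5.24%, 32 did not overlap, against 6.35%, and the median was 0.72. The count of 27 therefore rests on the new factors. Elsewhere, values without ND15.17.18 use the new factors unless the kept factors are named. On the deposited scale the median was 1.67, 0 members passed, against 0.0584% of all rows, 49 were higher at an unadjusted p under 0.05, against 9.25%, and 23 did not overlap between the groups, against 7.82%. Without ND15.17.18 on that scale the median was 0.96 and 39 were higher, against 6.13% of all rows, whose median was then 0.32. The shares of all rows given so far are also the background, setting by setting, for the counts of classes and lists below.

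**Figure D1:**
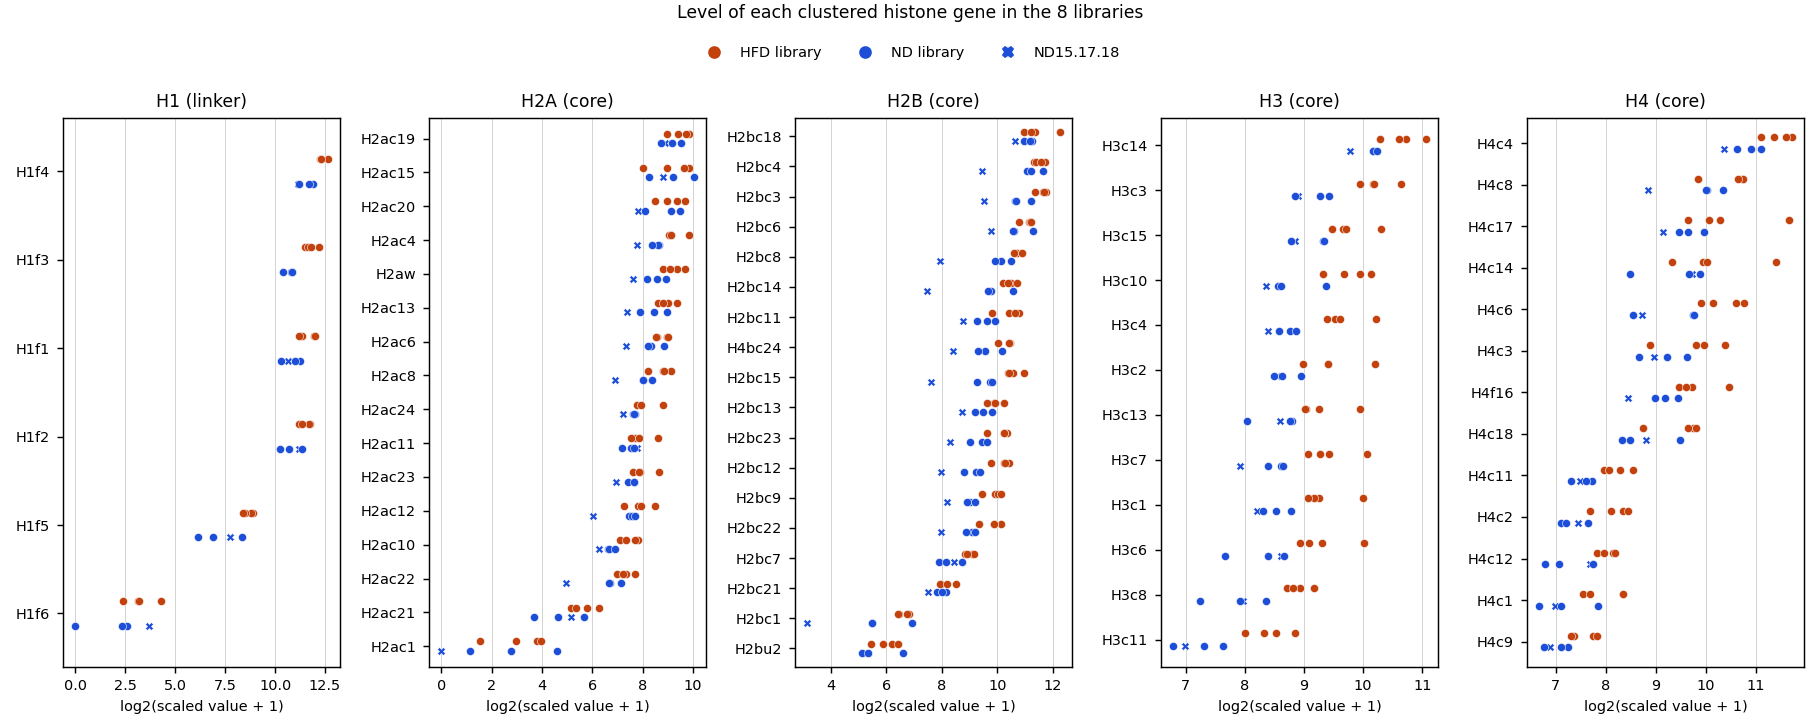
Level of each of the 65 histone genes in each library, as log2(scaled value + 1) on the horizontal axis, with 1 panel per class and genes ordered by their mean. Each point is 1 library, orange for HFD and blue for ND, and the cross is ND15.17.18, which lies left of the other ND libraries for most H2A and H2B genes but not for H1.

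Linker histones stood higher in HFD by a median of 0.98. All 6 differences were positive, 5 had an unadjusted p under 0.05, and in 3 (H1f3, H1f4 and H1f5) the groups did not overlap. H1f3 (H1.3; chromosome 13, 23555032 to 23555807), one of the somatic linker subtypes, stood at 11.49, 11.66, 12.20 and 11.79 in HFD22, HFD23, HFD26 and HFD27, and at 10.84, 10.79, 10.87 and 10.41 in ND15.17.18, ND16, ND19 and ND20. All 4 HFD libraries lay above all 4 ND libraries, by 0.62 at the closest, and HFD26 was the highest. The means were 11.78 ± 0.31 in HFD and 10.73 ± 0.22 in ND (SD, n = 4 each), a difference of 1.06 ± 0.17 (SE, n = 4 each; limma adjusted p = 0.119), or 2.08-fold.

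H1f4 (H1.4, chromosome 13, 23621777 to 23622558) was the linker gene with the highest mean value, though whether values are per length is not known. It stood at 12.26, 12.29, 12.64 and 12.31 in HFD22, HFD23, HFD26 and HFD27. In ND15.17.18, ND16, ND19 and ND20 it stood at 11.15, 11.88, 11.68 and 11.20. Again the groups did not overlap, 3 HFD libraries lay close together, and HFD26 stood above them. Its difference was 0.90 ± 0.18 (SE, n = 4 each; limma adjusted p = 0.181). H1f5 (H1.5), another somatic subtype, differed by 1.37 ± 0.42 (SE, n = 4 each; limma adjusted p = 0.304), and ND20 at 6.14 and ND19 at 6.91 were low against 8.32 in ND16. H1f1 and H1f2 differed by 0.82 ± 0.25 and 0.63 ± 0.25 (SE), with ND16 inside the HFD range in both. H1f6, the testis-specific linker histone, was near the floor in every library, from 0 to 4.27. A filter of at least 30 in 4 libraries dropped H1f6, and the linker median was then 0.90. Without ND15.17.18 the median difference of all 6 linker genes was 0.91, and H1f3 stood at 1.07, H1f4 at 0.76 and H1f5 at 1.498.

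Core histones stood higher in HFD by a median of 0.83, with 59 of 59 differences positive. Of these, 36 had an unadjusted p under 0.05 and 29 did not overlap between the groups. Without ND15.17.18 the median was 0.64 and the counts were 32 and 24, or 35 and 29 with the kept factors. The difference of the linker and core medians was 0.15, and no test is given for it since the members were chosen with results known. The balance of linker and core signal varied most among the ND libraries: the log2 ratio of summed linker to summed core value was -1.30 in ND15.17.18, -1.68 in ND16, -1.82 in ND19 and -2.57 in ND20. In HFD it ran from -1.92 to -1.65, inside the ND range. The summed log2 level of all 65 genes ran from 15.87 to 16.36 in HFD and 14.80 to 15.49 in ND, without overlap, a difference of 0.80 in means, or 0.65 without ND15.17.18 (kept factors). On the deposited scale the 65 genes took 1819 to 2721 ppm of the total in HFD and 136 to 1708 ppm in ND.

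**Figure D2:**
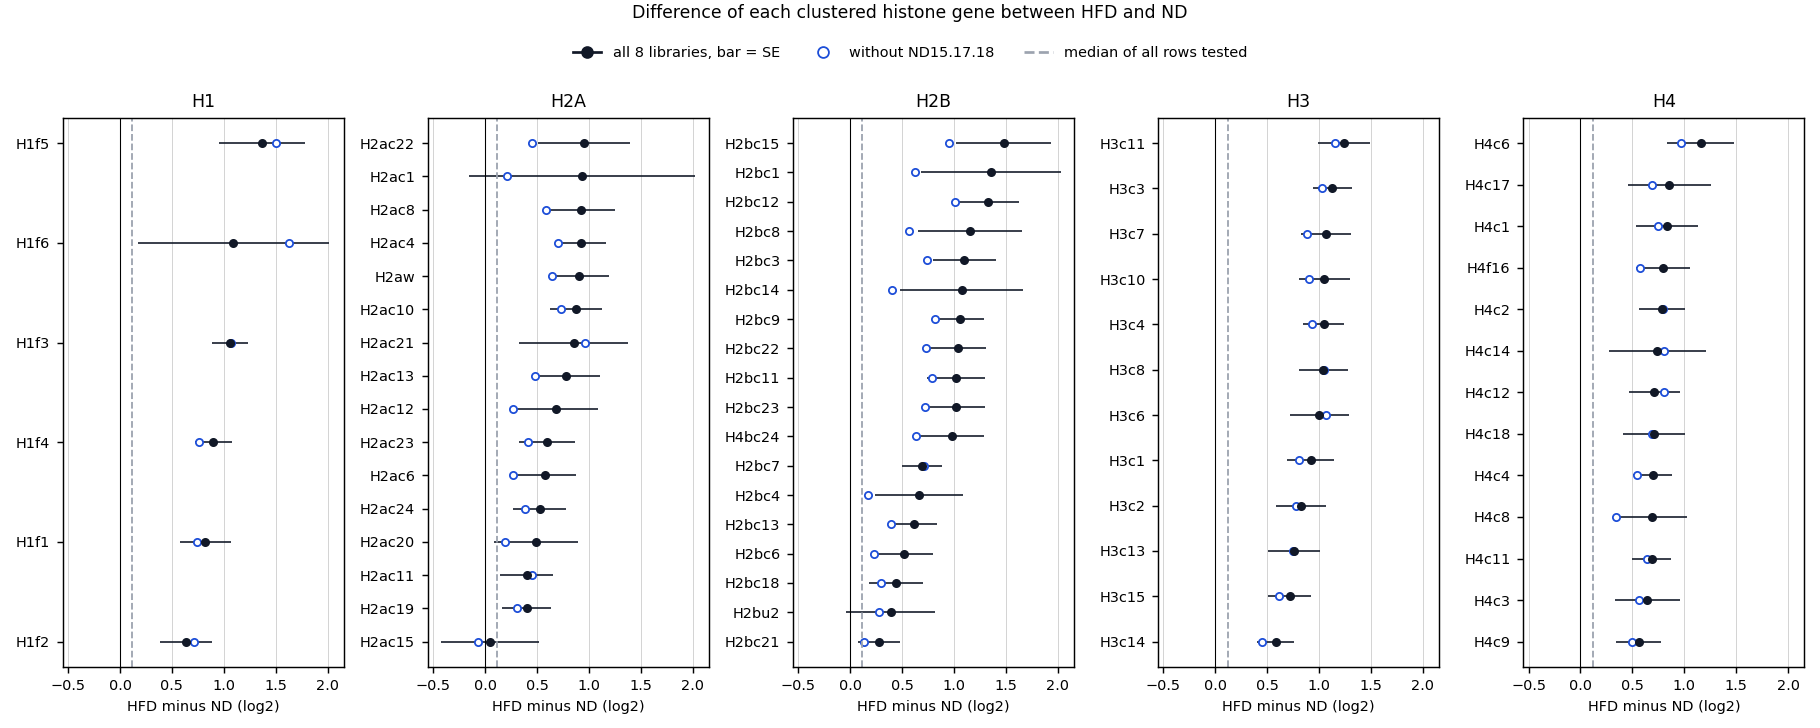
Difference between HFD and ND of each histone gene (log2, horizontal axis), 1 panel per class, genes ordered by the difference. Filled points are all 8 libraries with the standard error as bar, open points leave out ND15.17.18, and the dashed line at 0.12 is the median of all rows tested; every filled point lies right of 0, and open points lie furthest left of the filled ones in H2A and H2B.

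H2A genes stood higher in HFD by a median of 0.73, with 5 of 16 past the unadjusted threshold and 3 whose groups did not overlap (H2ac4, H2ac10 and H2ac24). Without ND15.17.18 the median was 0.43, with 4 past the threshold and 3 without overlap. H2ac4 (chromosome 13, 23751088 to 23751592) stood at 9.11, 9.04, 9.82 and 9.12 in HFD22, HFD23, HFD26 and HFD27, and at 7.77, 8.65, 8.62 and 8.36 in ND15.17.18, ND16, ND19 and ND20. HFD26 stood above the other HFD libraries and ND15.17.18 below the other ND libraries, and the groups did not overlap. The difference was 0.92 ± 0.24 (SE, n = 4 each; limma adjusted p = 0.255), and 0.70 without ND15.17.18. H2ac10 (chromosome 13, 23533875 to 23534378) stood at 7.82, 7.09, 7.68 and 7.32 in the HFD libraries and 6.26, 6.60, 6.65 and 6.89 in the ND libraries, in the same order. Its difference was 0.87 ± 0.25 (SE, n = 4 each; limma adjusted p = 0.281). ND20, at 6.89, was the ND library closest to the HFD range.

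The H2A genes with the highest mean values did not separate the groups. H2ac19 (chromosome 3, 96239779 to 96240374) stood at 9.85, 8.95, 9.71 and 9.42 in the HFD libraries and 8.88, 8.73, 9.17 and 9.54 in the ND libraries, with HFD23 below ND19 and ND20. It differed by 0.40 ± 0.23 (SE, n = 4 each; limma adjusted p = 0.568). H2ac15 (chromosome 13, 21753377 to 21753912) stood at 9.85, 8.03, 8.97 and 9.64 in the HFD libraries and 8.81, 10.03, 8.26 and 9.21 in the ND libraries, so that the lowest value was in HFD and the highest in ND. Its difference was 0.05 ± 0.47 (SE, n = 4 each; limma adjusted p = 0.978), the smallest of the 65, and -0.07 without ND15.17.18. The other H2A members differed by 0.40 to 0.95. H2ac1, expressed in testis, was near the floor, from 0 to 4.60.

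H2B genes stood higher in HFD, and their values were low in ND15.17.18. Their median difference was 1.02, with 10 of 18 past the unadjusted threshold and 8 without overlap, and 0.63, 10 and 7 without ND15.17.18, or 0.66, 11 and 8 with the kept factors. H2bc9 (chromosome 13, 23542923 to 23543444) stood at 9.91, 9.45, 10.005 and 10.13 in HFD22, HFD23, HFD26 and HFD27, and at 8.19, 9.02, 8.89 and 9.18 in ND15.17.18, ND16, ND19 and ND20. The groups did not overlap, and the difference was 1.05 ± 0.23 (SE, n = 4 each; limma adjusted p = 0.205), or 0.81 without ND15.17.18. H2bc12 (chromosome 13, 22035821 to 22036320) stood at 10.42, 9.76, 10.25 and 10.27 in the HFD libraries and 7.97, 9.25, 8.79 and 9.37 in the ND libraries, where ND15.17.18 was well below the rest. It differed by 1.33 ± 0.29 (SE, n = 4 each; limma adjusted p = 0.205), or 1.01 without that library.

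The H2B genes with the highest mean values overlapped between the groups. H2bc18 (chromosome 3, 96269700 to 96270192) stood at 10.97, 11.35, 12.25 and 11.21 in the HFD libraries and 10.64, 11.23, 10.96 and 11.17 in the ND libraries, with HFD22 and HFD27 inside the ND range. H2bc4 (chromosome 13, 23684199 to 23692480) stood at 11.31, 11.40, 11.73 and 11.58 in the HFD libraries and 9.45, 11.08, 11.20 and 11.64 in the ND libraries. ND20 lay above 3 of the 4 HFD libraries for H2bc4, and ND15.17.18 far below all others. H2bc18 differed by 0.44 ± 0.26 (SE, n = 4 each; limma adjusted p = 0.573), by 0.18 without HFD26 and by 0.29 without ND15.17.18. H2bc4 differed by 0.66 ± 0.42 (SE, n = 4 each; limma adjusted p = 0.602), or 0.17 without ND15.17.18. The median of the 18 H2B genes lay at 8.23 in ND15.17.18, against 9.23 to 9.79 in the other ND libraries and 9.77 to 10.38 in HFD. In that library 17 of 18 H2B genes and 14 of 16 H2A genes stood below the mean of the other ND libraries, with median gaps of -1.09 and -0.85, against 9 of 12 H3 genes, 9 of 13 H4 genes and 2 of 6 linker genes.

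Most H2A and H2B genes lie head to head in pairs that share 1 upstream region. In the clusters 11 such pairs of an H2A and an H2B member were found, with starts 164 to 281 bases apart. The H2B gene had the larger difference in 9 of the 11, with a median of 1.02 against 0.59 for the H2A genes. Without ND15.17.18 this held in 7 pairs, with medians of 0.63 and 0.39. The widest gap was in H2ac15 and H2bc15, whose shared region is shown with the promoters. H2bc15 (chromosome 13, 21754076 to 21754553) stood at 10.97, 10.55, 10.37 and 10.42 in the HFD libraries and 7.60, 9.73, 9.27 and 9.79 in the ND libraries, without overlap, a difference of 1.48 ± 0.46 (SE, n = 4 each; limma adjusted p = 0.324), and 0.95 without ND15.17.18, while H2ac15 differed by 0.05. H2ac20 and H2bc21, the pair on chromosome 3, differed by 0.49 and 0.28, or 0.19 and 0.13 without ND15.17.18.

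**Figure D3:**
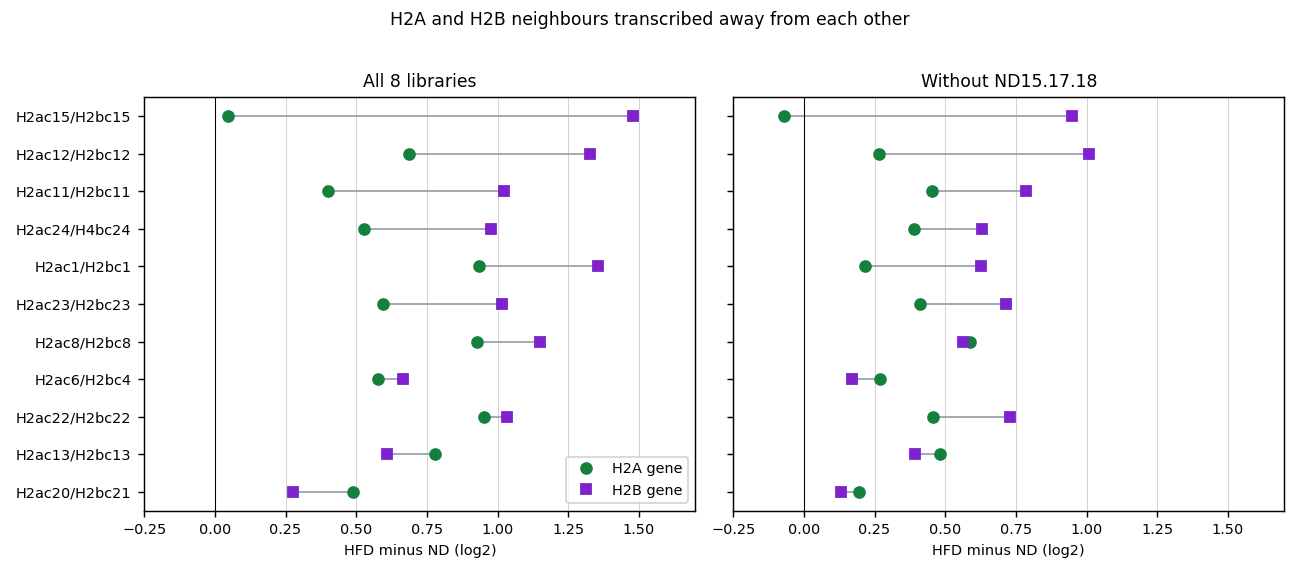
Difference between HFD and ND (log2, horizontal axis) of the H2A gene (green circle) and the H2B gene (purple square) in each of 11 head-to-head pairs, with all 8 libraries on the left and without ND15.17.18 on the right. The H2B gene lies further right in 9 pairs with all libraries and in 7 without ND15.17.18.

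H3 genes stood higher in HFD in every member: all 12 had an unadjusted p under 0.05, 11 did not overlap between the groups, and the differences ran from 0.58 to 1.24 with a median of 1.02. All 12 also had an unadjusted p under 0.05 without ND15.17.18, where the median was 0.89 and 9 did not overlap, or 11 with the kept factors. H3c3 (chromosome 13, 23745042 to 23745521) stood at 9.94, 10.17, 10.64 and 10.19 in HFD22, HFD23, HFD26 and HFD27, and at 8.89, 9.42, 9.27 and 8.85 in ND15.17.18, ND16, ND19 and ND20. The lowest HFD library lay above the highest ND library, and HFD26 was highest. Its difference was 1.13 ± 0.19 (SE, n = 4 each; limma adjusted p = 0.125), or 2.18-fold. H3c4 (chromosome 13, 23575763 to 23576266) stood at 9.39, 9.53, 10.22 and 9.62 in the HFD libraries and 8.39, 8.57, 8.76 and 8.86 in the ND libraries, also without overlap. It differed by 1.04 ± 0.20 (SE, n = 4 each; limma adjusted p = 0.166).

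H3c14 (chromosome 3, 96246685 to 96247348), the H3 gene with the highest mean value, stood at 10.73, 10.28, 11.06 and 10.61 in the HFD libraries and 9.78, 10.17, 10.17 and 10.23 in the ND libraries. The gap between HFD23 and ND20 was small and the groups did not overlap. Its difference was 0.58 ± 0.18 (SE, n = 4 each; limma adjusted p = 0.302), the smallest in the class. H3c14 and H3c15 have identical open reading frames. The exception to the separation was H3c10, at 1.05, with HFD23 at 9.32 below ND16 at 9.37. Summed over the class, H3 stood at 13.03, 13.05, 13.74 and 13.12 in the HFD libraries and 12.15, 12.58, 12.37 and 12.30 in the ND libraries, with HFD26 apart from the other 3 HFD libraries.

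H4 genes differed by 0.56 to 1.16, with a median of 0.71; 9 of 13 passed the unadjusted threshold and 7 did not overlap. Without ND15.17.18 the counts were 6 and 5 and the median 0.69, or 8, 7 and 0.72 with the kept factors. H4c4 (chromosome 13, 23581568 to 23581969), whose coding sequence shares no 100-base window with another member, stood at 11.35, 11.09, 11.71 and 11.60 in HFD22, HFD23, HFD26 and HFD27, and at 10.36, 11.09, 10.91 and 10.62 in ND15.17.18, ND16, ND19 and ND20. HFD23 and ND16 nearly met, and the groups did not overlap. The difference was 0.70 ± 0.19 (SE, n = 4 each; limma adjusted p = 0.259). H4c11 (chromosome 13, 21735034 to 21735456) stood at 8.29, 7.96, 8.54 and 8.07 in the HFD libraries and 7.48, 7.73, 7.30 and 7.61 in the ND libraries, again without overlap, a difference of 0.69 ± 0.19 (SE, n = 4 each; limma adjusted p = 0.268).

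H4c8 (chromosome 13, 23531044 to 23531478) stood at 10.72, 9.83, 10.74 and 10.65 in the HFD libraries and 8.84, 10.01, 10.33 and 10.003 in the ND libraries. HFD23 was the low HFD library and fell inside the ND range. It differed by 0.69 ± 0.33 (SE, n = 4 each; limma adjusted p = 0.505), and by 0.34 without ND15.17.18. The largest difference in the class was that of H4c6, at 1.16 ± 0.32 (SE). H4c17 and H4c18 have identical coding sequences, yet in HFD23 H4c17 was at 11.66, the highest of the 8 libraries, and H4c18 at 8.75, the lowest HFD value. H4c14, on chromosome 3, stood at 11.40 in HFD26, against 9.33 to 10.02 in the other HFD libraries.

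Copies of a class resemble each other, so reads may have been split between them by the counting used, which is not given in the sources used here. In the median gene, 58.9% of the 100-base windows of the longest open reading frame also occur in another histone gene; by class the median was 4.90% in H1, 52.0% in H2B, 60.1% in H4, 71.6% in H3 and 74.3% in H2A. All windows of both genes listed at 0, H2ac7 and H2ac18, occur in other genes, and H2ac18 has the same coding sequence as H2ac19. The values of single genes with shared sequence are therefore uncertain. In the 11 genes with no shared window, among them H1f1, H1f5, H2bc18, H2bc21, H4c4 and H4c14, all differences were positive, from 0.28 to 1.37 with a median of 0.80, and 5 had an unadjusted p under 0.05. The other 54 had a median of 0.86, and 36 had an unadjusted p under 0.05.

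By position, the 53 members on chromosome 13 and the 9 on chromosome 3 all stood higher in HFD. The 30 genes of chromosome 13 between 23531044 and 23934913 had a median difference of 0.92, and 21 had an unadjusted p under 0.05. For the 23 genes between 21715711 and 22043658 these were 0.86 and 15, and for the chromosome 3 genes (96219885 to 96270192) 0.58 and 3. Genes with an annotated stem-loop had a median of 0.81 (42 members), and those without one in the annotated transcript 0.85 (23 members). No test between these groups is given.

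Replacement histones, which are made outside S phase and mostly from polyadenylated messengers, had a median difference of 0.36, and of 0.20 without ND15.17.18. Of 11 tested, 2 were higher and 0 lower at an unadjusted p under 0.05, against 6.43% and 4.09% of all rows. In 1 the groups did not overlap, against 4.72% of all rows. H2az1 (H2A.Z) differed by 0.71 ± 0.19 (SE, n = 4 each; limma adjusted p = 0.258), Cenpa, the centromeric H3, by 0.36 ± 0.15 (SE, n = 4 each; limma adjusted p = 0.425) and H2aj by 0.36 ± 0.17 (SE, n = 4 each; limma adjusted p = 0.49). Of the 4 germ line histones tested, 0 passed in either direction, with a median of 0.18. H1f8, H2al1m and H2bl1 differed by 1.83 ± 1.06, -0.89 ± 0.78 and 0.20 ± 0.18 (SE). Among 29 genes of histone messenger processing and transcription, 0 were higher and 3 lower at that threshold, with a median of 0.03. The 3 were Upf1, an RNA helicase of messenger decay that also acts on histone messengers, at -0.68 ± 0.13, Fip1l1, a polyadenylation factor, at -0.61 ± 0.16, and the transcription factor Yy1, at -0.53 ± 0.14 (SE), with limma adjusted p-values of 0.158, 0.248 and 0.248. On the deposited scale all 3 were positive, at 0.17, 0.25 and 0.33, but below the median of all rows there, 0.90. Without ND15.17.18 they stayed negative, at -0.67, -0.51 and -0.60. Slbp and Npat, the activator of histone transcription, were at differences of 0.34 ± 0.23 and -0.21 ± 0.13 (SE) and were chosen after their values were seen. Of 23 chaperones and importers, 3 were higher and 3 lower, with a median of 0.09, led by the acetyltransferase Hat1 at 0.73 ± 0.19, Cabin1 at -0.45 ± 0.15 and the assembly factor subunit Chaf1b at 0.54 ± 0.20 (SE), with limma adjusted p-values of 0.248, 0.343 and 0.38.

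Genes of DNA replication stood higher beside the histones. All 35 differences were positive, with a median of 0.52. At an unadjusted p under 0.05, 27 were higher and 0 lower, against 6.43% and 4.09% of all rows. In 21 the groups did not overlap, against 4.72% of all rows. Without ND15.17.18 the median was 0.47, 21 were higher, against 4.56% of all rows, and 22 did not overlap, against 5.56%. On the deposited scale 11 were higher, against 9.25%, and 15 did not overlap, against 7.82%. Their median level was 9.21, 9.24, 9.41 and 9.25 in HFD22, HFD23, HFD26 and HFD27, and 8.93, 8.81, 8.72 and 8.77 in ND15.17.18, ND16, ND19 and ND20. HFD26, the library with the highest histone sum, also had the highest replication median. ND15.17.18 had the lowest histone sum, 14.80, and the highest replication median among the ND libraries, 8.93. That median is the value of Rrm2, a gene for which ND15.17.18 was the lowest of the 8 libraries. Among the ND libraries, ND15.17.18 was also lowest for other replication genes, such as Mcm7 (9.37) and Pcna (9.05). For others, such as Tk1 (9.27) and Pole (9.40), it was the highest. Ccna2 (cyclin A2) differed by 0.78 ± 0.12 (SE, n = 4 each; limma adjusted p = 0.108), Mcm7, part of the replicative helicase, by 0.70 ± 0.14 (SE, n = 4 each; limma adjusted p = 0.188) and Cdc45, which works with it, by 0.97 ± 0.21 (SE, n = 4 each; limma adjusted p = 0.205). Of 6 proliferation markers, 4 were higher and 0 lower at that threshold, led by Birc5 at 0.86 ± 0.17, Aurkb at 0.83 ± 0.20 and Ccnb1 at 0.82 ± 0.22 (SE), with limma adjusted p-values of 0.175, 0.228 and 0.262. Of the 6 differences 5 were positive, and that of Mki67 was -0.055 ± 0.32 (SE). Cdk1 differed by 0.40 ± 0.26 (SE). Both Mki67 and Cdk1 were highest in ND15.17.18, at 13.02 and 10.62. No gene of the replication and proliferation lists passed the adjusted threshold in limma.

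**Figure D4:**
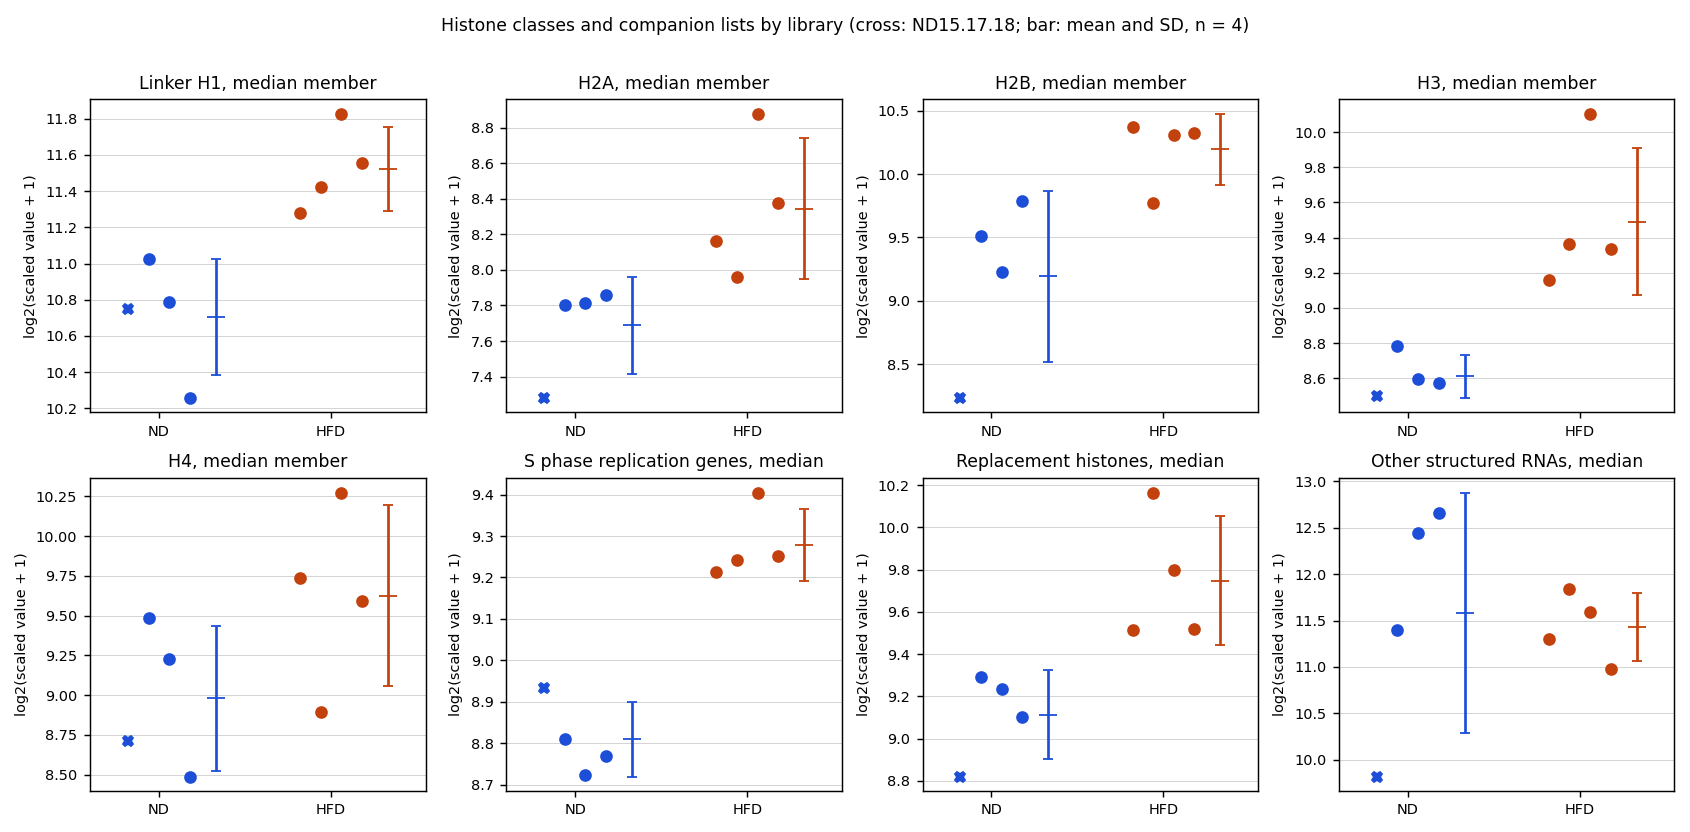
Median level of each histone class and of 3 companion lists in each library, as log2(scaled value + 1) on the vertical axis, with the mean and SD of the 4 libraries of a group beside the points and a cross for ND15.17.18. The HFD and ND libraries are separate for H1, H2A, H3, the replication genes and the replacement histones, while H4, H2B (HFD23 and ND20 nearly meet) and the other structured RNAs overlap.

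Other structured RNAs without a poly(A) tail, such as those of the small nuclear and RNase P particles, were followed for comparison. Of 16 tested, 0 were higher and 0 lower at an unadjusted p under 0.05, with a median of -0.05, and Rnu12, Rpph1 and Terc differed by -0.93 ± 0.61, 0.87 ± 0.59 and 1.32 ± 1.06 (SE), with limma adjusted p-values of 0.606, 0.625 and 0.663. Their median level was 9.82 in ND15.17.18, the lowest, and 12.66 in ND20, the highest. Without ND15.17.18, 0 were higher and 2 lower, the median was -0.31, 4 of 16 differences were positive, and Rnu12, Rpph1 and Terc stood at -1.30, 0.29 and 0.26. As deposited, 2 were higher and 0 lower, with a median of 0.77.

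Markers of other cell types that a stomach sort could hold also differed between the libraries. Of all rows tested, 6.43% were higher and 4.09% lower at an unadjusted p under 0.05. On the deposited scale 9.25% of all rows were higher, and 0.0584% passed limma's adjusted threshold in either direction. Of 11 markers of smooth muscle and fibroblasts, 7 were higher and 0 lower at an unadjusted p under 0.05, with a summed log2 level of 12.50 to 13.30 in HFD and 10.95 to 13.23 in ND; Acta2 (smooth muscle actin), Actg2 and Tagln differed by 2.05 ± 0.42, 1.81 ± 0.41 and 1.10 ± 0.25 (SE), with limma adjusted p-values of 0.201, 0.205 and 0.206. In 6 of the 11, the smooth muscle genes Acta2, Actg2, Tagln, Cnn1, Des and Myh11, the groups did not overlap. The fibroblast markers overlapped between the groups, and of them only Dcn passed the unadjusted threshold, at 0.82 ± 0.34 (SE). Pdgfra, Col1a2, Col3a1 and Col1a1 differed by 0.46 ± 0.53, 0.27 ± 0.54, 0.11 ± 0.52 and -0.14 ± 0.56 (SE). The median difference of all 11 was 1.10. Without ND15.17.18 the median was 1.12, with 6 higher and 6 without overlap. Of the 11, 1 gene on the deposited scale, Des (desmin), passed limma's adjusted threshold, at 3.54 (adjusted p = 0.0188). Of 5 keratins of the forestomach, a squamous epithelium with a dividing basal layer, 2 were higher and 0 lower, with a summed level of 11.36 to 12.56 in HFD and 6.75 to 11.52 in ND. ND15.17.18 and ND16 were lowest for all 5 forestomach keratins, and Krt4, Krt13 and Krt5 differed by 2.69 ± 0.96, 2.46 ± 1.01 and 2.13 ± 1.12 (SE), with limma adjusted p-values of 0.382, 0.456 and 0.541. Without ND15.17.18, 0 of the 5 were higher and the median was 1.21, from 2.13. On the deposited scale 5 were higher, and 2, Krt4 and Krt13, passed limma's adjusted threshold, at 3.43 and 3.24 (adjusted p = 0.0339 and 0.0387). Of 10 leukocyte markers tested, 2 were higher and 0 lower. Their summed level was 7.27 to 8.10 in HFD and 6.97 to 8.68 in ND, and S100a8 was at 0 in every library. At low levels, Cd3e, the T cell receptor subunit, Ms4a1 and Lyz2 differed by 2.25 ± 0.78, 2.70 ± 0.95 and 1.97 ± 1.03 (SE). Their limma adjusted p-values were 0.359, 0.365 and 0.527. Cd3e was listed at 0 in 3 ND libraries. Of 4 endothelial and 3 erythroid markers, 0 passed in either direction. Summed levels of endothelial markers were 10.06 to 10.68 in HFD and 9.005 to 10.88 in ND. For erythroid markers they were 8.87 to 10.68 in HFD and 7.60 to 10.29 in ND. As deposited, 2 endothelial and 3 erythroid markers were higher. Kdr, Cdh5 and Vwf differed by 0.89 ± 0.47, 0.81 ± 0.53 and 0.55 ± 0.36 (SE). Hba-a2, Hba-a1 and Hbb-bs differed by 0.76 ± 0.74, 0.75 ± 0.78 and 0.61 ± 0.68 (SE). Among the 17 gastric epithelium markers 3 were higher and 2 lower: Epcam, Muc5ac (pit cell mucin) and Cblif (intrinsic factor) differed by 0.68 ± 0.14, -1.61 ± 0.35 and 1.46 ± 0.33 (SE), with limma adjusted p-values of 0.201, 0.205 and 0.222. The part of these cells in the histone differences was not tested.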

How the data were processed

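Total RNA of sorted gastric epithelial cells was sequenced in 8 libraries, 4 per group. The authors' deposited tables hold 1 value per gene identifier, read here as log2 values floored at 0, since the 8 tables share 1 linear total. Whether they are per length was not given in the sources used here, nor were the aligner, annotation and normalization. The submitters' processing notes name mm10 and bedtools 2.17.0. The tables of HFD23 and HFD27 carry another form of header than the other 6. Between 14.8% and 34.7% of low values were whole multiples (within 0.01) of the most frequent low value, so whole reads were not recovered, the depth behind a value is unknown, and no counting interval is given.

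Values were put on the linear scale (a deposited 0 as 0), and a factor per library, the median over 11115 rows (above 30 in all 8 libraries) of value over row mean, was divided out. Rows reaching 1 in 4 or more libraries entered limma 3.58.1 (R 4.3.3, trend and robust) on log2(value + 1), with group as the only term and Benjamini-Hochberg adjustment over all 27401 rows, at a threshold of 0.05. The fit was tested on simulated data. No count model was used, and no replicate number is shared between groups.

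Of the identifiers, 32891 matched RefSeq genes of GRCm38.p6, the assembly of mm10; coordinates and promoters are from RefSeq on that assembly and transcripts from GENCODE M21. In each class, the 2 members with the smallest p and the 2 with the highest mean were described in full, and from each companion list the 3 with the smallest p; H2aw, H2bu2 and H4f16 are members and were left out of those lists. Members, lists and tests were chosen with earlier results of these data known. The median-ratio scaling, quantile normalization, the deposited scale, another pseudocount (8), other filters, limma without its options and each library left out were compared; with a library left out, factors were estimated anew from the libraries kept. Leaving out HFD23 and HFD27 together, ND15.17.18 on the deposited scale, and ND15.17.18 with the factors of all 8 libraries kept, was added after seeing the data.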

Additional observations from a re-analysis of the deposited data

Results flagged for a closer look

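In 7 of 78 groups of 4 libraries examined (the named genes, the class levels and ratios), 1 library lay far from the other 3, where chance alone gives about 1 in 20 groups. HFD26 stood apart upwards in 3 of them: H1f4 was at 12.64 in that library against 12.26 to 12.31 in the other HFD libraries, H2ac4 at 9.82 against 9.04 to 9.12, and the summed H3 level at 13.74 against 13.03 to 13.12. HFD23 stood apart downwards in 2: H4c8 was at 9.83 against 10.65 to 10.74, and the median H2B gene at 9.77 against 10.31 to 10.38. ND15.17.18 stood apart downwards in 2: H3c14 was at 9.78 against 10.17 to 10.23, and the median H2A gene at 7.28 against 7.80 to 7.86.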

How the results depend on the processing

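The count of histone genes past limma's adjusted threshold was 0 under every alternative run, and among 272 values of the 16 named genes under 17 alternatives the lowest adjusted p was 0.103. Direction was kept in 266 of them; the other 6 belong to H2ac15, whose difference of 0.05 became -0.021 after quantile normalization and ran from -0.22 to 0.42 with 1 library left out (-0.22 without ND19, -0.20 without HFD22, -0.12 without HFD27, -0.072 without ND15.17.18, and -0.043 when the factors of all 8 libraries were kept). On the deposited scale, where the median of all rows moves to 0.90, the median difference was 1.65 for core and 1.73 for linker genes, and 0.91 and 1.18 with ND15.17.18 left out. With 1 library left out the core median ran from 0.64 to 0.94 and the linker median from 0.86 to 1.05. The linker median exceeded the core median by 0.15 and, with 1 library left out, by 0.01 (without HFD23) to 0.27 (without ND15.17.18). With a value of at least 30 required in 4 libraries, which dropped H1f6, the linker median was 0.90 and the core median 0.81. With HFD23 and HFD27 both left out, an alternative added after seeing the data, the difference was -0.0016, so the order of the classes depends on the libraries used. The count of core genes higher at an unadjusted p under 0.05 ran from 28 (quantile normalization, 4.09% of all rows) to 44 (deposited scale, 9.25%) over the alternatives, and that of linker genes from 4 to 5. Quantile normalization lowered the number of members whose groups do not overlap from 32 to 16, and the share of all rows from 4.72% to 2.60%. No paired analysis was possible because the groups share no replicate numbers. The tables hold no counts, so how far depth limits single genes is unknown.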

Other observations

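Shares of the summed histone value, which do not depend on the scaling of a library, varied more among ND than among HFD libraries. H2B genes took 25.8% in ND15.17.18, 34.1% in ND16, 35.3% in ND19 and 47.7% in ND20, against 33.7% to 37.9% in HFD. Linker genes took 28.9% in ND15.17.18, 23.8% in ND16, 22.1% in ND19 and 14.4% in ND20, against 20.9% to 24.2% in HFD. H4 genes took 14.7% to 19.9% in ND and 16.6% to 18.9% in HFD. H3 genes took 11.7% to 15.9% in ND and 13.2% to 16.3% in HFD. H2A was the only class whose shares did not overlap between the groups, though narrowly. Its genes took 9.43% to 11.51% in ND and 7.54% to 9.35% in HFD. The log2 ratio of summed H2B to summed H2A value was 1.94 to 2.24 in HFD and 1.45 to 2.05 in ND, with ND20 inside the HFD range. The log2 ratio of summed H3 to summed H4 value was -0.52 to -0.22 in HFD and -0.59 to -0.32 in ND.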
